A study of Mus musculus with 12 samples.

Results

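Transcripts encoded by the mitochondrial genome were followed in quadriceps muscle libraries labelled as WT mice, as GAA-deficient (KO) mice and as KO mice given a GAA gene therapy vector. They were taken as every row of the expression tables whose gene name starts with mt-, which gave 19 of 15344 genes. These were 7 mRNAs (mt-Nd1, mt-Nd2, mt-Co1, mt-Nd4, mt-Nd5, mt-Nd6 and mt-Cytb), both rRNAs (mt-Rnr1 and mt-Rnr2) and 10 tRNAs. GENCODE M21 lists 37 genes on the mitochondrial chromosome, and the 18 without a row, among them mt-Co2, mt-Co3, mt-Atp6, mt-Atp8, mt-Nd3 and mt-Nd4l, were not analysed here.

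The mammalian mitochondrial genome is a small circle present in many copies per cell, and it encodes core subunits of the respiratory chain and of ATP synthase together with the rRNAs and tRNAs needed to translate them. Both strands are transcribed as long precursors by the polymerase Polrmt with the factor Tfam, and the precursors are cut mainly at the tRNAs that lie between the other genes. Levels of the finished RNAs therefore depend on transcription, cleavage, polyadenylation and decay. All other subunits of the respiratory chain are encoded in the nucleus, so that each complex except complex II is built from transcripts of both genomes. Skeletal muscle fibres differ widely in mitochondrial content, with slow and fast oxidative fibres above fast glycolytic fibres.

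Quadriceps of 12 C57BL/6 mice aged 6 months were compared, with 4 animals in each group. The GAA-deficient mice were male, and the sex of the wild-type mice is not given in the sources used here. The WT-labelled libraries are described as coming from untreated wild-type mice, and the KO-labelled ones from mice without functional acid alpha-glucosidase (GAA), the lysosomal enzyme that breaks down glycogen, which had received PBS. For the AAV-labelled libraries the description is the same KO strain after a tail vein injection at 2 months of age of AAV2/8-LSPhGAApA (2e+12 vg/kg), a vector that drives human GAA from a liver-specific promoter, so that muscle receives the enzyme from the blood. Values are the authors' normalized counts, which are reads per gene divided by 1 size factor per library, and total reads lay between 22122233 and 47379737.

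The targeted gene went against several labels. Gaa had normalized counts of 343, 14640, 324 and 460 in the WT-labelled libraries (animals 1 to 4), of 12151, 13075, 11936 and 12895 in the KO-labelled ones, and of 947, 587, 500 and 9854 in the AAV-labelled ones. Gaa was thus high in every library labelled KO, in WT animal 2 and in AAV animal 4, and low in the other 6 libraries. Each group is therefore called by its label below, directions between groups are directions between labels, and results are also given without WT animal 2 and AAV animal 4. The markers of skeletal muscle fibres had a row for all 6 genes listed, and their summed level lay between 2778230 and 4358660 in all libraries.

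A nuclear copy of part of the mitochondrial genome bears on which stretches could be counted, since the authors dropped reads with more than 1 mapping position. On chromosome 1 of GRCm38, 7 annotated pseudogenes repeat mitochondrial genes at an identity of at least 99%. Of these, Gm28661 (mt-Co2), Gm10925 (mt-Atp6), Gm28437 (mt-Co3), Gm10222 (mt-Nd4l) and Gm28438 (mt-Nd3) repeat genes that were not analysed here. The other two repeat parts of measured genes, Gm29216 (chr1:24615706-24616197, - strand) the last 483 bases of mt-Co1, and Gm28439 (chr1:24611535-24612410, - strand) the first 876 of the 1378 bases of mt-Nd4. The near-identity of the stretches is shown here around the bases at which 2 of the copies differ from the mitochondrial gene, given in capitals.
mt-Co1 (chrM:6390-6423, + strand): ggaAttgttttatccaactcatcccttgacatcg
Gm29216 (chr1:24616155-24616188, - strand): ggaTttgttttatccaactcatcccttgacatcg
mt-Nd3 (chrM:9459-9491, + strand): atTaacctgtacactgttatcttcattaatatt
Gm28438 (chr1:24613087-24613119, - strand): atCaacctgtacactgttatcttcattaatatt
Counted from the first base of each gene, the substitutions were A1066T in mt-Co1 and T3C in mt-Nd3, and each was the only mismatch in its alignment. The border of the copy within mt-Nd4 is shown next, with the bases beyond the copy in capitals.
mt-Nd4 (chrM:11013-11072, + strand): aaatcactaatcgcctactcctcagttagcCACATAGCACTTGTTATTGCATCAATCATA
Outside these stretches mt-Co1 keeps 1062 bases and mt-Nd4 502 bases. A further 7 pseudogene rows with an identity of 92.3 to 97.6% to mitochondrial genes had values of their own. They lay between 1.38 and 215 normalized counts, and those of the 6 that resemble a measured gene came to at most 0.108% of its value.

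Shown next are the tRNAs mt-Tp (proline) and mt-Tt (threonine), which were called between the AAV- and KO-labelled libraries, and mt-Ti (isoleucine) and mt-Tq (glutamine), which were called in some of the alternative fits given below. Their anticodons are given in capitals. The genes mt-Tt and mt-Tp lie side by side after mt-Cytb, on opposite strands, and mt-Ti and mt-Tq overlap by their ends between mt-Nd1 and mt-Nd2, also on opposite strands.
mt-Tp (chrM:15356-15422, - strand): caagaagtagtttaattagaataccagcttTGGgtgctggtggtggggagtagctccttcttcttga
mt-Tt (chrM:15289-15355, + strand): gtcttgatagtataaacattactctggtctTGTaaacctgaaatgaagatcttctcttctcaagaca
mt-Ti (chrM:3706-3774, + strand): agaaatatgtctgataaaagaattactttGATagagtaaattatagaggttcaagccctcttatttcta
mt-Tq (chrM:3772-3842, - strand): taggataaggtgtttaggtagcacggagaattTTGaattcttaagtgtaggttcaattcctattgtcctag
All sequences shown were read from the transcripts of GENCODE M21.

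The 19 transcripts took between 3.11 and 10.03% of a library's reads. Their share was 5.75, 3.64, 10.03 and 6.00% in the WT-labelled libraries, 6.51, 7.41, 8.24 and 6.28% in the KO-labelled ones, and 6.11, 6.75, 4.79 and 3.11% in the AAV-labelled ones. The group means were 6.36% ± 2.67, 7.11% ± 0.898 and 5.19% ± 1.61 (SD, n = 4), and all 3 groups overlapped. WT animal 3 was highest, and the lowest values of their groups were those of WT animal 2 and AAV animal 4, the libraries whose Gaa stood apart. In bulk muscle, fewer cells of a type and less RNA per cell cannot be told apart, and a share also moves with the most abundant nuclear transcripts. The most abundant row of the tables, RP23-81C12.3 (named Gm42418 in GENCODE), alone took between 5.61 and 11.5% of the reads.

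The mRNAs made up 81.6% of the mitochondrial reads over all libraries, the rRNAs 18.4% and the tRNAs 0.0266%. Within the mitochondrial reads, the rRNA share was 13.4, 10.6, 16.5 and 17.4% in the WT-labelled libraries and 16.9, 16.7, 19.7 and 14.6% in the KO-labelled ones. It was 30.03, 24.5, 26.5 and 24.7% in the AAV-labelled libraries, so that all 4 lay above the other 8 libraries. Group means were 14.5% ± 3.10, 17.0% ± 2.12 and 26.4% ± 2.56 (SD, n = 4). This split was noticed in the data and carries no test. The summed mRNA share of the library was 5.36 to 6.61% in the KO-labelled libraries and 2.34 to 5.10% in the AAV-labelled ones, which did not overlap, whereas the rRNA share of the library overlapped (0.916 to 1.63% and 0.768 to 1.83%).

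**Figure D1:**
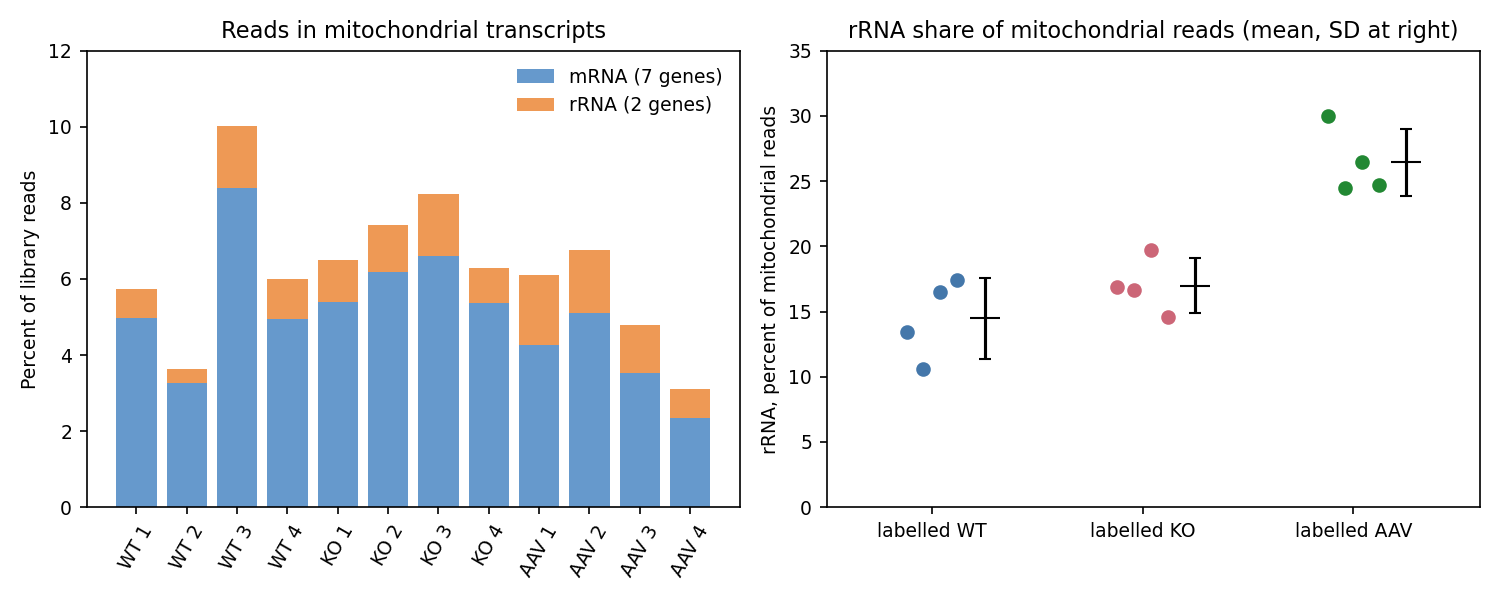
Left, percent of each library's reads in mitochondrial mRNAs and rRNAs, as stacked bars for the 12 libraries. Right, rRNA as percent of the mitochondrial reads, 1 point per library with the group mean and SD at the right of each group; the AAV-labelled libraries lie between 24.5 and 30.03%, above all others (at most 19.7%).

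Methods of library preparation bear on rRNA and tRNA values, as sequencing was done from isolated mRNA according to the methods, while the labels name total RNA. Of RNAs that do not end in a poly(A) tail, Rn7sk (a small nuclear RNA that restrains transcription elongation) had 1315 to 1882 normalized counts in the WT-labelled libraries, 979 to 1424 in the KO-labelled ones and 1519 to 2237 in the AAV-labelled ones. The AAV-labelled libraries thus lay above the KO-labelled ones for Rn7sk too (log2 fold change 0.73, adjusted p = 0.0114). Of the 22 rows of the list of such RNAs, 19 were tested between KO and WT, with 4 higher and 7 lower (12.3 and 15.3% of all genes), and 18 between AAV and KO, with 3 higher and 1 lower (12.8 and 13.4% of all genes). The list's summed level overlapped between groups (8721 to 10578, 8729 to 13045 and 8202 to 10585 for the labels WT, KO and AAV). For the nuclear retained RNAs, Malat1 had 57902 to 189485, 95647 to 129472 and 130127 to 309903 normalized counts for the labels WT, KO and AAV, and was called higher between AAV and KO, without overlap (log2 fold change 0.89, adjusted p = 0.0435). The list's other member, Neat1, overlapped between these labels (0.73, adjusted p = 0.0958). The part of RNA selection in the rRNA values was not tested.

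Levels per kilobase, which allow transcripts of different length to be compared, ranged over all 12 libraries from 51662 normalized counts per kilobase for mt-Nd5 to 407056 for mt-Cytb among the mRNAs. The mRNA of cytochrome b, the mitochondrial subunit of complex III, was followed by mt-Nd1 (392962), mt-Co1 (207306), mt-Nd2 (177891), mt-Nd4 (168465), mt-Nd6 (107204) and mt-Nd5. With the length outside the nuclear copy, an alternative added after the data were seen, mt-Nd4 came to 462441 and mt-Co1 to 301589 per kilobase, and mt-Nd4 then stood first. In the KO-labelled libraries mt-Nd1 was at 486652 ± 55230 and mt-Cytb at 463902 ± 33331 per kilobase (SD, n = 4), a difference within the spread between animals. Within a library, mt-Nd1 per kilobase was 0.684 to 0.894 times mt-Cytb in the WT-labelled libraries, below it in all 4, and 0.9751 to 1.14 times in the KO-labelled ones. Over their full lengths, mt-Co1 and mt-Nd2 were at 244838 ± 10875 and 248664 ± 10455 per kilobase in the KO-labelled libraries, whereas with the length outside the nuclear copy mt-Co1 was at 356190 ± 15821, above mt-Nd2 by more than the spread. Both rRNAs had nearly the same level per kilobase, 160334 for mt-Rnr1 and 157828 for mt-Rnr2. Their ratio per kilobase stayed between 0.936 and 1.28 in all 12 libraries. The tRNAs were at 49.8 (mt-Tc) to 4218 (mt-Ti) normalized counts per kilobase, and rested on 0 to 837 reads per library, against at least 21736 reads for every mRNA and rRNA.

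**Figure D2:**
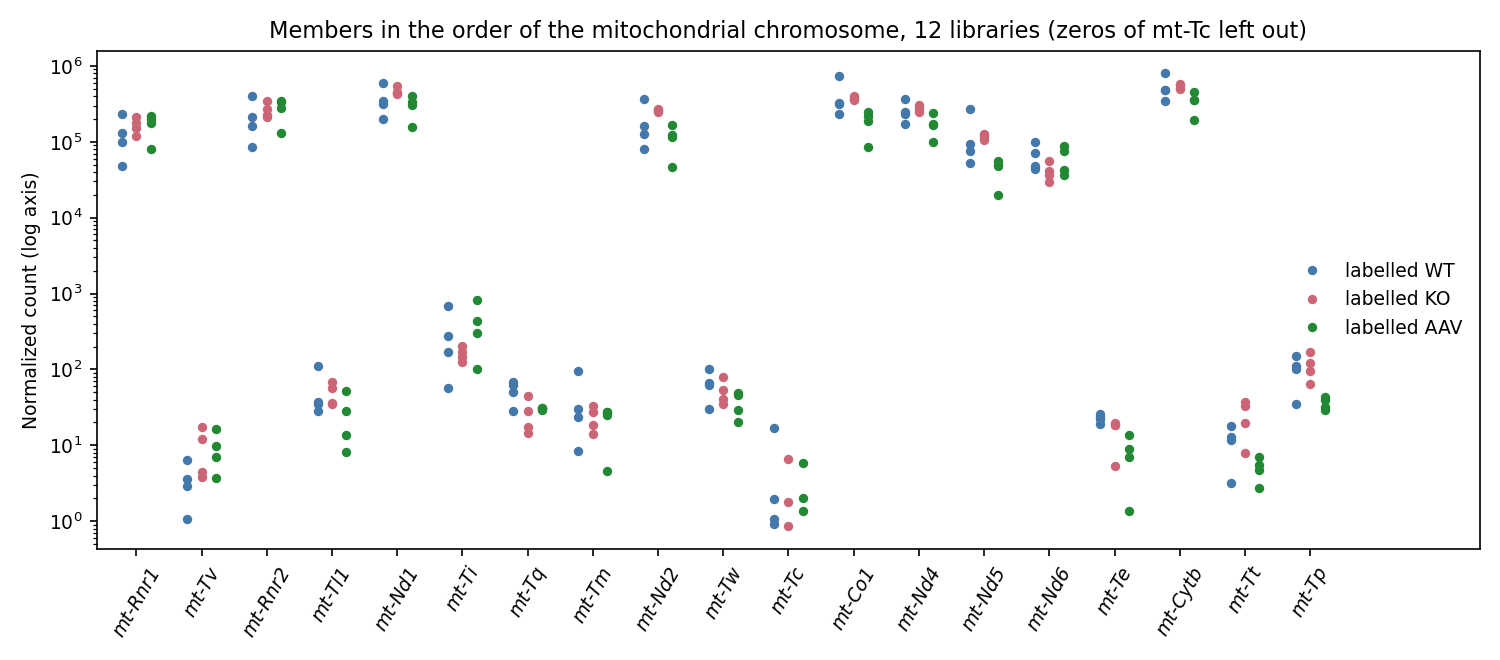
Normalized count of each of the 19 transcripts in each library (log axis, 1 point per library, colour by label; libraries with 0 counts of mt-Tc are left out). The 9 mRNAs and rRNAs lie between 19947 and 795764 and the 10 tRNAs at or below 830.

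Animals labelled WT varied most for 7 of the 9 mRNAs and rRNAs, and those labelled AAV for mt-Nd4 and mt-Nd6. The coefficient of variation was 31.8% (mt-Nd4) to 80.5% (mt-Nd5) in the WT-labelled libraries, 4.204% (mt-Nd2) to 27.3% (mt-Nd6) in the KO-labelled ones and 31.1% (mt-Cytb) to 44.1% (mt-Nd2) in the AAV-labelled ones. Among the WT-labelled libraries, animal 3 was the highest and animal 2 the lowest for all 9 of these transcripts.

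The question of loss of GAA was addressed, as far as the labels hold, by comparing the KO- and WT-labelled libraries, with limma on log2(normalized count + 1). This covered 14859 genes, those that reached a value of 10 in some library of the 8. Of the 19 mitochondrial transcripts, 0 were called at an adjusted p under 0.05, where 27.6% of all genes tested were called, and 0 were separated without overlap (28.3% of all genes). At an unadjusted p under 0.05 there was 1, mt-Tq, and edgeR and DESeq2 also called 0. The median log2 fold change of the 19 was 0.07, beside 0.02 over all genes, and 12 were above 0 and 7 below.

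The mRNAs of complex I subunits, which sit in the membrane arm of NADH dehydrogenase, showed how far the animals overlapped. Normalized counts of mt-Nd2 were 160334, 79106, 367547 and 125863 in the WT-labelled libraries and 248134, 272502, 260208 and 251609 in the KO-labelled ones. The 4 KO values were close together and lay within the range of the WT values, above 3 of them and below WT animal 3. The log2 fold change was 0.73 (95% interval -0.13 to 1.59, adjusted p = 0.177). For mt-Nd1 it was 0.47 (-0.21 to 1.16), for mt-Nd4 0.15 (-0.37 to 0.67) and for mt-Nd5 0.23 (-0.69 to 1.14). Values of mt-Co1, the catalytic subunit of cytochrome c oxidase (complex IV), and of mt-Cytb differed by 0.07 each, with intervals of -0.65 to 0.79 and -0.51 to 0.66.

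The light-strand mRNA mt-Nd6, a complex I subunit and the sole mRNA annotated on the - strand, went the other way. It had 47622, 43164, 99945 and 70150 normalized counts in the WT-labelled libraries and 41779, 36686, 55549 and 29129 in the KO-labelled ones, a log2 fold change of -0.63 (-1.27 to 0.00, adjusted p = 0.119). Its groups overlapped through KO animal 3. The glutamine tRNA mt-Tq had 68.8, 28.7, 62.5 and 50.7 in the WT-labelled libraries and 28.0, 14.5, 44.6 and 17.7 in the KO-labelled ones. That was a log2 fold change of -1.04 (-1.91 to -0.16, adjusted p = 0.0735). Whether the counting used strand is not given in the sources used here, so that reads of a gene and of the opposite strand's precursor cannot be told apart for mt-Nd6, mt-Tq, mt-Tc, mt-Te and mt-Tp.

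Calls in this comparison depended on single libraries and on a correction for the GC content of the genes. With that correction mt-Nd6 was called lower for the label KO at -1.10 (adjusted p = 0.00866) and mt-Tq at -1.43 (adjusted p = 0.0133). Without WT animal 3, 5 transcripts were called higher for the label KO, mt-Nd2 (1.14), mt-Rnr1 (0.92), mt-Rnr2 (0.85), mt-Nd1 (0.75) and mt-Nd5 (0.70), with adjusted p from 0.00232 to 0.0401. Without WT animal 2, the library with high Gaa, the median of the 19 moved to -0.15 and mt-Tq alone was called, at -1.30 (adjusted p = 0.0475). KO animal 3 had the highest mitochondrial share of its group and was also the library with Ucp1, the uncoupling protein of brown fat, at 194 normalized counts against 0 in the other 3. It also had Cidea at 177 against 7.73 to 13.7, and Adipoq, an adipocyte hormone, at 926 against 45.4 to 159. Without it mt-Tq was called (-1.33) and no other member was.

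The question of the vector was addressed, as far as the labels hold, by comparing the AAV- and KO-labelled libraries, over 14894 genes. Lower in the AAV-labelled libraries were 3 of the 7 mRNAs, for 2 subunits of complex I and the catalytic subunit of complex IV, and 2 tRNAs, while the rRNAs had log2 fold changes close to 0. Of the 18 members that passed the minimum (mt-Tc did not), 5 were called lower and 0 higher, where 13.4% of all genes were called lower and 12.8% higher. All 5 also passed a log2 fold change of -1, as 3.55% of all genes did. Both groups were separated without overlap for 8 members, all lower, against 15.8% of all genes lower and 14.8% higher. The median log2 fold change of the 18 was -0.71, beside 0.04 over all genes.

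The strongest call among the mRNAs was mt-Nd5 (ENSMUSG00000064367, chrM:11742-13565, + strand), a proton-pumping subunit of complex I. It had 105798, 116200, 125447 and 121036 normalized counts in the KO-labelled libraries and 49777, 55909, 47781 and 19947 in the AAV-labelled ones. Every AAV value lay below every KO value, and the fold change was 2.90-fold lower (log2 -1.53, SE 0.30, adjusted p = 0.00817). For mt-Nd2 (ENSMUSG00000064345, chrM:3914-4951, + strand) the AAV-labelled libraries had 124214, 165689, 114593 and 46017, all below the KO values given above, with a log2 fold change of -1.34 (SE 0.35, adjusted p = 0.0221). For mt-Co1 (ENSMUSG00000064351, chrM:5328-6872, + strand) the values were 359804, 398356, 384579 and 370357 in the KO-labelled libraries and 186522, 244895, 217255 and 86221 in the AAV-labelled ones. The log2 fold change was -1.14 (SE 0.32, adjusted p = 0.0281).

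The other mRNAs on the + strand were also separated between the groups, and did not pass the test. Values of mt-Cytb were 507785, 553192, 571727 and 490110 in the KO-labelled libraries and 352210, 451037, 356398 and 196266 in the AAV-labelled ones (log2 -0.71, SE 0.29, adjusted p = 0.0985). For mt-Nd1 the log2 fold change was -0.70 (SE 0.31, adjusted p = 0.118), and for mt-Nd4 it was -0.75 (SE 0.27, adjusted p = 0.0664). In all 6 of these mRNAs AAV animal 4 was the lowest of the 12 libraries. In contrast, mt-Nd6 had 89201, 76035, 42356 and 36051 normalized counts in the AAV-labelled libraries, which overlapped with the KO-labelled ones (log2 0.52, -0.18 to 1.21, adjusted p = 0.233). With the GC correction mt-Nd6 was called higher, at 0.87 (adjusted p = 0.0346).

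The rRNAs of the small and large subunit of the mitochondrial ribosome did not pass the test. In the KO-labelled libraries, mt-Rnr2 had 226097, 269104, 339267 and 210407 normalized counts, and in the AAV-labelled ones 342695, 333614, 278018 and 131069. The 3 highest AAV values lay in the upper part of the KO range or just above it. The log2 fold change was -0.02 (-0.76 to 0.73, adjusted p = 0.976), and -0.05 (-0.78 to 0.69) for mt-Rnr1. These intervals still allow a fall of the size estimated for mt-Nd1 and mt-Cytb. The sign turned to 0.30 and 0.28 without AAV animal 4.

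Of the tRNAs, mt-Tp (ENSMUSG00000064372) had 123, 95.8, 172 and 63.7 normalized counts in the KO-labelled libraries and 28.9, 32.2, 43.7 and 39.5 in the AAV-labelled ones, without overlap. The log2 fold change was -1.55 (SE 0.30, adjusted p = 0.00796). Its neighbour mt-Tt (ENSMUSG00000064371) had 32.9, 19.7, 37.0 and 7.96 against 2.76, 7.05, 4.72 and 5.51, a log2 fold change of -1.93 (SE 0.49, adjusted p = 0.0205) that rests on between 2 and 34 reads per library. Of both tRNAs, whose sequences stand above, mt-Tt adjoins the 3′ end of mt-Cytb and mt-Tp lies beyond mt-Tt. The isoleucine tRNA mt-Ti had 125, 170, 202 and 146 in the KO-labelled libraries and 440, 830, 301 and 103 in the AAV-labelled ones. AAV animal 4 alone lay below the KO values, and the log2 fold change was 1.04 (-0.10 to 2.18, adjusted p = 0.151). The first 2 bases of mt-Ti are also the last of mt-Nd1, and how reads in both genes were assigned is not given in the sources used here. The remaining 6 tRNAs tested lay between -1.17 (mt-Tl1) and 0.33 (mt-Tq) and were not called.

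**Figure D3:**
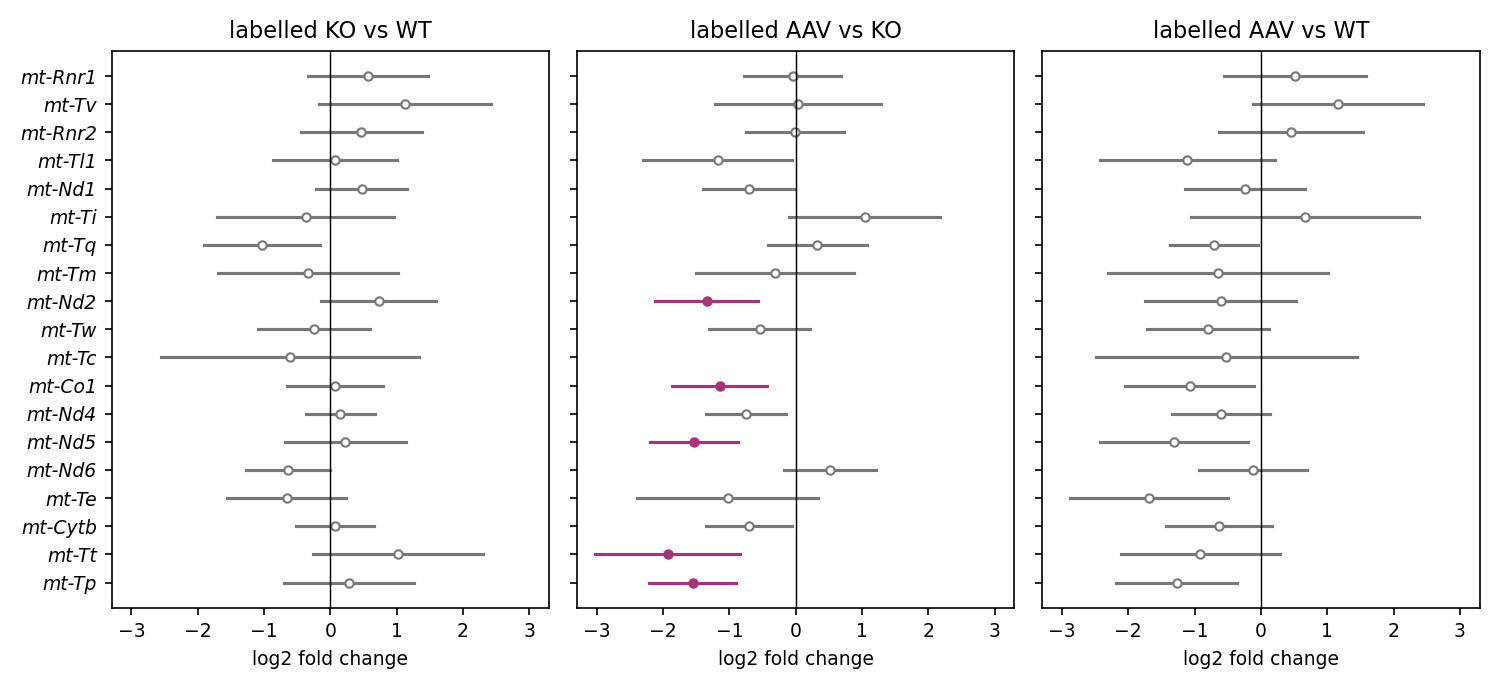
log2 fold change of each mitochondrial transcript (circles) with its 95% interval (lines) in the 3 comparisons of labels, from limma on log2(normalized count + 1). Filled circles passed an adjusted p of 0.05, which were mt-Nd2, mt-Co1, mt-Nd5, mt-Tt and mt-Tp between the AAV- and KO-labelled libraries and none elsewhere.

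Calls for mt-Nd5 and mt-Tp held in all 20 alternative settings, from -1.20 to -1.73 and from -1.33 to -2.26, whereas mt-Nd2 was called in 15 of 20, mt-Co1 in 12 of 20 and mt-Tt in 13 of 19. The count of 5 fell to 2 without KO animal 1 or KO animal 2, and to 3 without KO animal 3, KO animal 4 or AAV animal 1. Without AAV animal 4, whose Gaa was high, the same 5 transcripts were called lower, by smaller amounts for the mRNAs (mt-Nd5 -1.20, mt-Co1 -0.81 and mt-Nd2 -0.95). In addition, mt-Ti was called higher in that fit, at 1.59 (adjusted p = 0.0102), as it was with the GC correction, at 1.46 (adjusted p = 0.0206).

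Ratios within a library do not depend on its scaling, and were taken to mt-Cytb, the member with the highest mean normalized count before division by length. They were examined after the values were seen and carry no test. The ratio of mt-Nd4 varied least, between 0.458 and 0.534 in all 12 libraries. For mt-Nd5 it was 0.208, 0.210, 0.219 and 0.247 in the KO-labelled libraries and 0.141, 0.124, 0.134 and 0.102 in the AAV-labelled ones. The AAV values were below every KO value and also below the lowest WT value, 0.154. The ratio of mt-Co1 was likewise lower in the AAV-labelled libraries (0.439 to 0.610) than in the KO-labelled ones (0.673 to 0.756) and WT (0.643 to 0.919). For mt-Rnr2 the ratio was 0.973, 0.740, 0.780 and 0.668 in the AAV-labelled libraries against 0.429 to 0.593 in the KO-labelled ones and 0.244 to 0.510 in the WT-labelled ones. The ratio of mt-Nd2 was lower in the AAV-labelled libraries (0.234 to 0.367) than in the KO-labelled ones (0.455 to 0.513), without overlap. Those of mt-Nd6 (0.119 to 0.253 against 0.0594 to 0.0972) and mt-Rnr1 (0.404 to 0.614 against 0.246 to 0.373) were higher, also without overlap. Ratios of mt-Nd4 and mt-Nd1 overlapped between AAV and KO, that of mt-Nd1 at 0.802 to 0.950 and 0.816 to 0.950. Both called tRNAs also overlapped, with 0.0714 to 0.201 and 0.130 to 0.301 normalized counts of mt-Tp, and 0.00783 to 0.0281 and 0.0162 to 0.0647 of mt-Tt, per 1000 of mt-Cytb.

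Some proportions also set the labels KO and WT apart. Of the 36 pairs among the mRNAs and rRNAs, 11 had ratios without overlap between KO and WT. The number was 28 between AAV and KO and 20 between AAV and WT. The ratio of mt-Nd1 was 0.816 to 0.950 in the KO-labelled libraries and 0.573 to 0.748 in the WT-labelled ones, and that of mt-Nd6 was 0.0594 to 0.0972 against 0.0985 to 0.145. Neither overlapped between these labels. The mRNAs mt-Nd5 and mt-Nd6 come from opposite strands, and their genes overlap at the ends. In the KO-labelled libraries there were 0.395, 0.316, 0.443 and 0.241 normalized counts of mt-Nd6 for each of mt-Nd5, and in the AAV-labelled ones 1.79, 1.36, 0.886 and 1.81. The WT-labelled libraries had 0.511, 0.810, 0.373 and 0.940, which overlapped with both. The AAV mean was 4.19 times the KO mean, the widest gap among the ratios of mRNAs computed here.

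**Figure D4:**
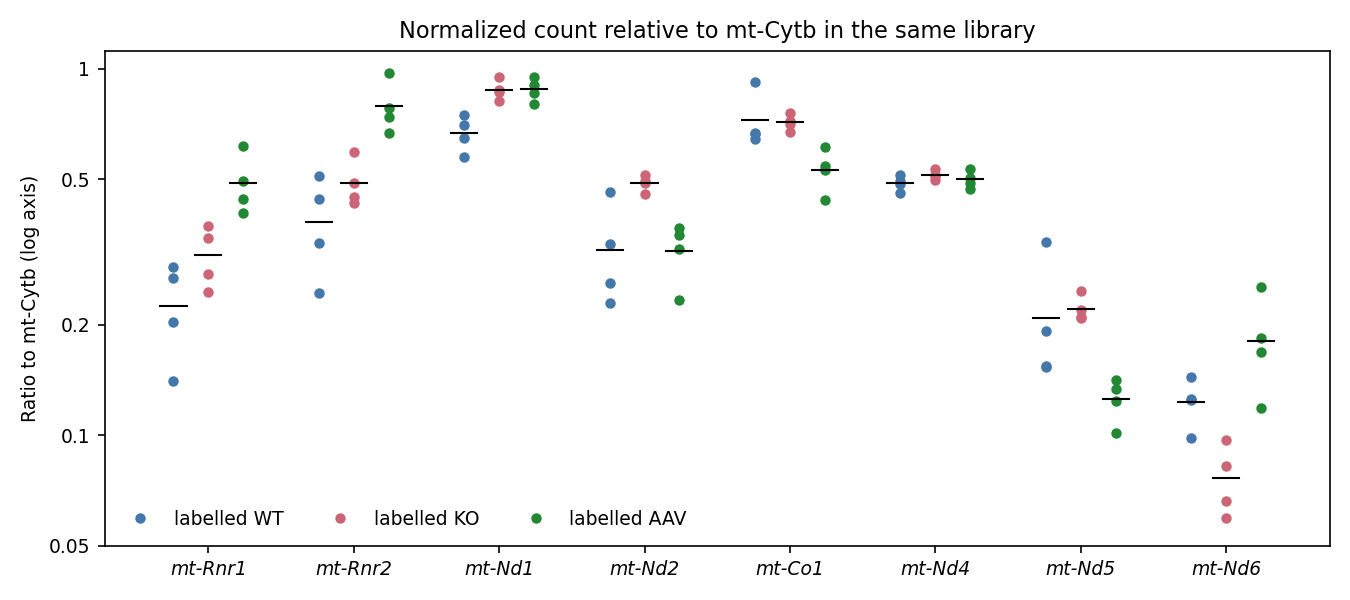
Normalized count of each mRNA and rRNA divided by that of mt-Cytb in the same library (log axis), 1 point per library with the group mean as a bar. Ratios of mt-Nd4 stay between 0.458 and 0.534, while those of mt-Rnr1 and mt-Rnr2 are higher and those of mt-Co1 and mt-Nd5 lower in the AAV-labelled libraries than in the other libraries.

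Between the AAV- and WT-labelled libraries, 0 of 19 mitochondrial transcripts were called by limma, where 1.29% of 14939 genes were called. At an unadjusted p under 0.05 there were 5 (mt-Nd5, mt-Co1, mt-Tq, mt-Te and mt-Tp), edgeR called 0 and DESeq2 called 2 (mt-Nd5 and mt-Tp). The lowest adjusted p was that of the glutamic acid tRNA mt-Te, with 26.2, 19.1, 21.9 and 23.4 normalized counts in the WT-labelled libraries and 1.38, 9.06, 7.09 and 13.8 in the AAV-labelled ones. That was a log2 fold change of -1.69 (-2.88 to -0.49, adjusted p = 0.149), and the sole member without overlap between these groups (11.7% of all genes). All 7 mRNAs lay below 0, from -1.31 (mt-Nd5) to -0.12 (mt-Nd6), and both rRNAs above it, at 0.52 and 0.45.

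Nuclear subunits of the same complexes were set beside the mitochondrial mRNAs. Between the KO- and WT-labelled libraries, 53 of 74 nuclear subunits of complexes I, III, IV and V were lower and 1 was higher (15.3 and 12.3% of all genes), with a median log2 fold change of -0.69. Complex I had 27 of 37 lower, complex III 7 of 9, complex IV 11 of 13 and complex V 8 of 15. The largest falls were those of complex IV subunits, Cox5b with a log2 fold change of -2.92 (adjusted p = 0.000207) and Cox8a with -2.27 (adjusted p = 0.0033). The single rise was that of Ndufs5 (5.91), whose transcript shares 319 bases at an identity of 99.4% with BC002163, so that its value is uncertain. Between the AAV- and KO-labelled libraries, 34 of the 74 were higher and 1 (Ndufs5) was lower (12.8 and 13.4% of all genes), with a median of 0.38. Complex IV again had the largest share, 8 of 13 higher, among them Cox6a1 at 1.06 (adjusted p = 0.00638).

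These comparisons share the KO-labelled libraries, so that a low value there appears in both. The counts of nuclear subunits were 49 lower and 1 higher (KO and WT) and 33 higher and 1 lower (AAV and KO) without WT animal 2 and AAV animal 4. Without KO animal 3 they were 49 lower and 29 higher. With a correction for gene length the counts were 39 lower and 23 higher, and the medians -0.41 and 0.22. Within a library, the 7 mitochondrial mRNAs summed to 3.75, 3.46, 3.74 and 3.54 times the nuclear subunits in the KO-labelled libraries. The ratio was 2.12, 2.10, 1.55 and 0.950 in the AAV-labelled ones and 2.26, 1.06, 3.79 and 1.80 in the WT-labelled ones. KO and AAV values did not overlap, and KO and WT values did so through WT animal 3.

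**Figure D5:**
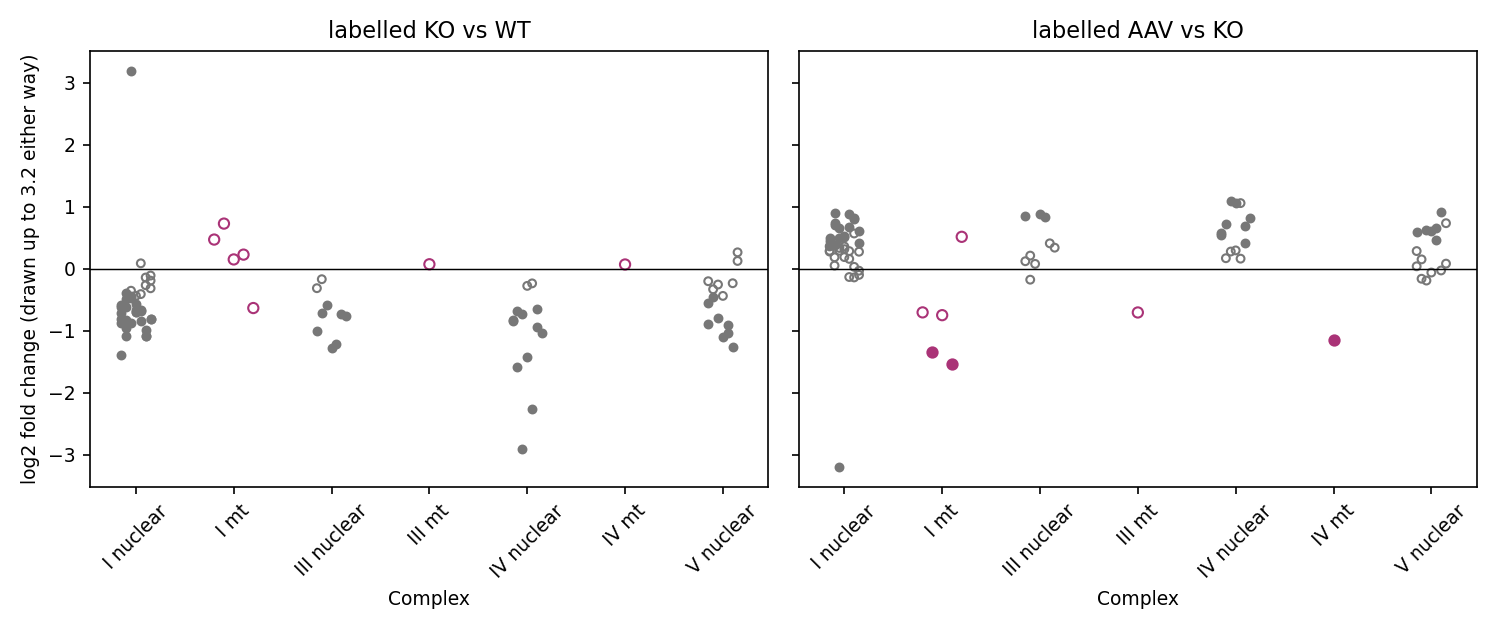
log2 fold change of nuclear (grey) and mitochondrial (purple) subunit transcripts of complexes I, III, IV and V between the KO- and WT-labelled libraries (left) and AAV and KO (right), filled where the adjusted p was under 0.05 (limma). Of 74 nuclear subunits 53 were lower on the left and 34 higher on the right, while the mitochondrial mRNAs had 0 calls on the left and 3 lower on the right; Ndufs5 lies beyond the axis and is drawn at its edge.

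Fibre type markers also differed between the labels. Of 8 slow fibre markers, 8 were lower in the KO-labelled libraries than in the WT-labelled ones, and 7 were higher in the AAV-labelled ones than in the KO-labelled ones, where 15.3% of all genes were lower and 12.8% higher. The count of 8 became 4 without WT animal 2 (high Gaa), WT animal 4 or KO animal 1, and 5 without KO animal 4, and no marker was called higher in these fits. The slow troponin Tnni1 had 165 to 1309 normalized counts in the WT-labelled libraries, 6.53 to 15.4 in the KO-labelled ones and 437 to 1856 in the AAV-labelled ones. The slow myosin Myh7 had 15.4 to 248, 11.1 to 14.5 and 41.3 to 4306. The summed level of the slow markers was 3436 to 6818, 1122 to 1331 and 3010 to 24840. Myh2, of fast oxidative fibres, was also lower in the KO-labelled libraries (log2 -1.89, adjusted p = 0.045) and higher in the AAV-labelled ones than in the KO-labelled ones (2.31, adjusted p = 0.0207). Of 5 fast glycolytic markers, Myh4 (0.73, adjusted p = 0.0487) and Mybpc2 (0.59, adjusted p = 0.0454) were higher and Myh1 lower (-1.36, adjusted p = 0.0182) in the KO-labelled libraries than in the WT-labelled ones, and Myh1 was higher in the AAV-labelled ones than in the KO-labelled ones (1.09, adjusted p = 0.0218). Their median was 0.59 between KO and WT and -0.77 between AAV and KO, and their summed level was 2052281 to 2588050 (WT), 2853889 to 3545844 (KO) and 1781973 to 3009532 (AAV), without overlap between KO and WT. Myh4 and Mybpc2, which fall short of the fold set for naming genes, are named here after their values were seen. Among markers of other cell types, 3 of 5 endothelial markers were higher (12.3% of all genes), and 2 of 4 macrophage and 2 of 5 brown adipocyte markers lower, in the KO-labelled libraries than in the WT-labelled ones. Between AAV and KO, 2 of 4 erythroid markers were higher in the AAV-labelled libraries (summed level 1395 to 3853 against 170 to 1786 normalized counts). The part of fibre and cell makeup in the mitochondrial values was not tested.

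Genes that transcribe, copy and process mitochondrial DNA and RNA were counted over 3 lists (transcription and replication, nucleotide supply, and RNA processing and turnover), with 60 of 61 rows tested. Of these, 3 were higher and 5 lower between KO and WT labels (median 0.03), where 12.3% of all genes were higher and 15.3% lower. Between AAV and KO labels 3 were higher and 9 lower (median -0.09), where 12.8% of all genes were higher and 13.4% lower. These counts depended on the setting. Between KO and WT labels they became 6 higher and 6 lower with all 12 libraries in 1 fit, 4 and 9 with DESeq2 or the GC correction and 1 and 4 with the replicate block. Without WT animal 3, 18 were higher and 8 lower between KO and WT labels, and the 3 higher became 1 without any other single animal of these groups except WT animal 4. Between AAV and KO labels 4 were higher and 4 lower when libraries were scaled by total reads (median 0.08), 2 and 4 with the replicate block, with all 12 libraries in 1 fit or without KO animal 4, 1 and 4 without KO animal 1, KO animal 2 or AAV animal 1, and 2 and 5 without AAV animal 4. Tfam, which packs mitochondrial DNA and starts its transcription, had 1332, 1310, 1861 and 1237 normalized counts in the WT-labelled libraries, 1498, 1682, 1483 and 1718 in the KO-labelled ones and 979, 1441, 1467 and 1002 in the AAV-labelled ones. Its log2 fold change was -0.41 between AAV and KO (adjusted p = 0.0775) and 0.17 between KO and WT (adjusted p = 0.402). For the RNA polymerase Polrmt these were -0.21 and 0.23, and for Polg, the catalytic subunit of the DNA polymerase, -0.05 and -0.04. For Peo1 (Twnk), the helicase of mitochondrial DNA, they were 0.07 and -0.02. Lrpprc and Slirp, which form a complex that stabilises mitochondrial mRNAs, were at 0.15 and 0.16 between AAV and KO and at -0.27 and -0.34 between KO and WT. None of these 6 genes passed the test in either comparison.

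In these lists, 2 genes passed both the test and a log2 fold change of 1. Rrm2b, a subunit of the ribonucleotide reductase that supplies nucleotides in resting cells, had 715, 784, 711 and 815 normalized counts in the KO-labelled libraries and 292, 436, 370 and 170 in the AAV-labelled ones. The groups did not overlap, and the log2 fold change was -1.33 (adjusted p = 0.00752). Compared with WT it was higher in the KO-labelled libraries (1.14, adjusted p = 0.0434), although WT animal 3 had 805. Endog, a mitochondrial nuclease, was lower in the KO-labelled libraries than in the WT-labelled ones (-1.24, adjusted p = 0.00726) and higher in the AAV-labelled ones than in the KO-labelled ones (0.60, adjusted p = 0.03). Of the 11 regulators of biogenesis, 1 was lower and 0 higher between KO and WT labels, and 1 was higher and 1 lower between AAV and KO labels, where the shares of all genes given above apply (15.3 and 12.3%, 12.8 and 13.4%). The genes called, named here after their values were seen, were Ppargc1b, a coactivator related to Ppargc1a, at -0.78 between KO and WT (adjusted p = 0.0208) and 0.99 between AAV and KO (adjusted p = 0.005), and Gabpa, a subunit of the transcription factor GABP, at -0.74 between AAV and KO (adjusted p = 0.00764). Ppargc1a, the coactivator that promotes mitochondrial biogenesis, was at 0.67 between AAV and KO (adjusted p = 0.0662).

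The nuclear genes whose levels followed the summed mitochondrial transcripts most closely were searched for among 11059 genes whose mean reached 50 normalized counts. Likeness was the root mean square difference of centred log2(normalized count + 1) over the 12 libraries, which was 0.53 for a flat profile and had a median of 0.61 over these genes. The nearest were Sepp1 (0.16), which encodes the secreted selenium carrier selenoprotein P, Ube2d3 (0.21), Rnf11 (0.22), Pdzd8 (0.22) and 2810407C02Rik (0.23), named Selenot in GENCODE. Sepp1 had 2388, 1741, 4103 and 1990 normalized counts in the WT-labelled libraries, 2702, 2749, 3406 and 2767 in the KO-labelled ones and 1894, 2937, 1881 and 1172 in the AAV-labelled ones, highest in WT animal 3 and lowest in AAV animal 4 as the mitochondrial transcripts were. Among the members themselves mt-Nd1 (0.11), mt-Cytb (0.14) and mt-Nd4 (0.16) were nearest to their own sum, and the tRNAs mt-Te (1.06), mt-Tc (0.94) and mt-Ti (0.90) farthest. All profiles share the same 12 libraries and their scaling, and the ranking carries no test.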

How the data were processed

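The authors trimmed reads with Trim Galore 0.4.1, mapped them with STAR to GRCm38, kept reads with a single location, counted them with HTSeq 0.6.1 and divided them by size factors of DESeq2 1.16.1 (tools as in the submitters' processing notes and the methods). The deposited signal is thus a normalized count, not a raw one. At a tolerance of 0.1 reads, 100% of the values of each library were whole multiples of 1 step, so that reads were recovered for the alternatives with edgeR and DESeq2. The deposited log2 fold changes, test scores and p-values of the authors' own comparisons were not used. Tables held 15344 genes, KO values differed by 0 between the 2 tables, and 0 columns of samples were left out.

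Groups came from the labels, 4 libraries each. limma 3.58.1 with a trend was fitted to log2(normalized count + 1) of the 8 libraries compared, over genes with at least 10 in any of them, with Benjamini-Hochberg adjustment over all genes and calls at an adjusted p under 0.05. The fold change on this scale understates that of low genes. A count test had been planned for raw counts and became an alternative. edgeR 4.0.16, DESeq2 1.42.0, scaling by total reads or by TMM without the members, a pseudocount of 0.1, no filter or a minimum of 50, GC and length corrections, the replicate number as a block, all 12 libraries in 1 fit and libraries left out were alternatives. On simulated data with 200 genes changed by 2 on the log2 scale among 14894, limma recovered 84.0% between AAV and KO, with 6.67% false calls.

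Copies were matched with BLAST 2.17.0 (identity of at least 90% over at least 100 bases), with genes and sequences from GENCODE M21 on GRCm38, in which 15186 identifiers were found. Named genes were all members, Gaa, list genes that were called and passed 1 in absolute log2 fold change or were fixed as examples, copies of mitochondrial DNA and the 5 nearest profiles. From long lists a few such genes are given. The members and lists were chosen with earlier results of these data known. Software was R 4.3.3 and Python 3.11.15. Whether libraries were prepared together is not given in the sources used here, and p-values measure the spread between these animals.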

Additional observations from a re-analysis of the deposited data

Results flagged for a closer look

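In groups of 4 libraries, a value was singled out where its gap to the nearest other value, divided by the group's range, exceeded Dixon's 95% critical value for 4 samples, which chance passes in about 1 in 20 groups. Of 117 groups examined, 7 had such a value. Gaa was singled out at 14640 normalized counts in WT animal 2 and at 9854 in AAV animal 4. WT animal 3 stood apart from its group for mt-Tl1 (110 normalized counts), mt-Tc (17.0) and the ratio of mt-Co1 to mt-Cytb (0.919). AAV animal 4 was low for mt-Tm (4.59), and KO animal 4 was low for mt-Te (5.3). The values of tRNAs rest on few reads.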

How the results depend on the processing

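Of the members called lower between AAV and KO labels, mt-Nd5 and mt-Tp were called in all 20 alternatives. The count of 5 called in either direction became 9 with DESeq2 (mt-Ti higher, the others lower), 8 with a length correction, 7 with the GC correction (mt-Nd6 and mt-Ti higher), and 3 with all 12 libraries in 1 fit, with the replicate block and with the GC correction and replicate block, and lay between 2 and 6 when each animal was left out. Between KO and WT labels the count of 0 became 1 with all 12 libraries in 1 fit, with the replicate block and without WT animal 2 and AAV animal 4, 2 with the GC correction and 3 with the GC correction and replicate block, and lay between 0 and 5 with each animal left out. Between AAV and WT labels it became 2 with DESeq2 and 1 with the GC correction and replicate block, and lay between 0 and 1 with each animal left out. Same-numbered animals did not deviate together in every pair (correlations of -0.18 to 0.07 between AAV and KO, -0.12 to 0.02 between KO and WT and -0.36 to 0.56 between AAV and WT, where replicates 3 and 4 were at 0.56 and 0.49), so that the numbers were not taken to pair the samples. Scaling by total reads kept 5 calls between AAV and KO labels, but moved the median of all genes from 0.04 to 0.20 and the calls over all genes from 1911 higher and 1999 lower to 2394 and 1271.

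Signs that turned belonged to members that were not called. Between KO and WT labels, the GC correction, with or without the block, gave -0.22 for mt-Co1, -0.25 for mt-Cytb, -0.27 for mt-Nd4, -0.15 for mt-Nd5 and -0.09 for mt-Tl1. Without WT animal 2 and AAV animal 4 these were -0.15, -0.11, -0.02, -0.07 and -0.15, and mt-Tp was at -0.15. edgeR gave -0.08 for mt-Co1, -0.06 for mt-Nd5 and -0.10 for mt-Tl1, DESeq2 gave -0.08, -0.07 and -0.11, and a length correction gave 0.05 for mt-Tw. With each animal left out, the ranges were -0.15 to 0.41 for mt-Co1, -0.11 to 0.29 for mt-Cytb, -0.02 to 0.34 for mt-Nd4, -0.07 to 0.70 for mt-Nd5, -0.99 to 0.20 for mt-Ti, -0.15 to 0.49 for mt-Tl1, -0.87 to 0.25 for mt-Tm, -0.15 to 0.54 for mt-Tp and -0.58 to 0.01 for mt-Tw. Between AAV and KO labels, mt-Rnr1 and mt-Rnr2 were at 0.12 and 0.15 with total reads, at 0.28 and 0.32 with the GC correction, with or without the block, at 0.28 and 0.30 without WT animal 2 and AAV animal 4 (mt-Tm 0.26) and at 0.01 and 0.04 with DESeq2, and mt-Rnr2 was at 0.03 with edgeR. mt-Tv was at -0.06 with edgeR, -0.05 with DESeq2 and -0.66 with the length correction, which gave -0.37 for mt-Tq. Ranges with each animal left out were -0.20 to 0.28 for mt-Rnr1, -0.16 to 0.30 for mt-Rnr2, -0.52 to 0.26 for mt-Tm and -0.27 to 0.39 for mt-Tv. Between AAV and WT labels, mt-Nd6 was at 0.03 with total reads and 0.08 with the length correction, and the ranges were -0.49 to 0.05 for mt-Nd1 and -0.34 to 0.11 for mt-Nd6. The cause of these shifts was not tested.

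With a denominator without the members and the 10 most abundant nuclear genes, the mean shares were 10.3, 11.7 and 8.00% for the labels WT, KO and AAV. As a share of all reads, the mRNAs alone took 5.89% in the libraries labelled KO. Depth limits the tRNAs, with at most 837 reads, and not the mRNAs and rRNAs.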
